A study of Mus musculus with 18 samples.

Results

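A set of 10 genes of retrograde transport, nuclear import and endosomes was followed in RNA sequencing of mouse dorsal root ganglia (DRG), which house the cell bodies of sensory neurons. They were taken by symbol from the deposited count table: the importins Kpnb1 and Kpna2, the dynein subunits Dync1h1, Dync1i1 and Dync1i2, the dynactin subunit Dctn1, the endosomal GTPases Rab5a and Rab7, and the endosome and exosome genes Cd63 and Pdcd6ip. All 10 were found among the 15730 genes of the table, and all 10 passed the filter on low counts. The sciatic ganglia (lumbar levels L4-L6) came from C57BL/6 mice aged 6 to 8 weeks and were collected 24 hours after surgery. Each sample pooled the ganglia of 2 mice, and there were 18 samples in 6 groups of 3. SNA_Saline was a sciatic nerve injury with saline, and Sham_Saline was its sham operation with saline. SNA_NAC was the same injury with 30 mM N-acetyl-cysteine (NAC), a thiol antioxidant, and Sham_H2O2 was the sham operation with 13 mM hydrogen peroxide. DCA was an injury of the spinal dorsal columns, which hold the central branches of these neurons, and LAM was the laminectomy that opens the spine. The labels name no transgene or mutant allele, and the RNA was that of whole ganglia, so neurons, glia and other cells were measured together.

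An injured axon informs its distant cell body through cargo carried along microtubules towards the nucleus. The motor is cytoplasmic dynein, which works with its activator dynactin and carries signalling endosomes marked by Rab5 and then Rab7. Importins bind proteins with a nuclear localisation signal, and in sensory axons importin beta is known to be made locally after nerve injury and to travel with importin alpha and dynein. CD63 is a tetraspanin of late endosomes and of exosomes, the vesicles released when multivesicular bodies fuse with the cell surface, and Pdcd6ip (ALIX) acts with the ESCRT machinery that forms them. The comparisons ask whether the transcripts of this machinery differed in the ganglion after peripheral injury, after central injury, and with an antioxidant or an oxidant. Transcripts in the ganglion do not report protein or transport in the axon, which were not measured here.

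The promoters of Kpna2 and Cd63 are printed because these were the 2 members that passed the test after sciatic injury. Both come from RefSeq (GRCm38.p6) and run from 250 bases before to 50 bases after the start of the transcript, on the strand of the gene. In Kpna2, at chr11:106999476-106999775 on the minus strand, capitals mark 2 matches of the CCAAT box (CCAAT), which begin 25 bases before the start and at base 7 of the transcript, and 1 match on the reverse strand of the cell cycle homology element (TTTGAA), which begins 35 bases before the start. In Cd63, at chr10:128909095-128909394 on the plus strand, no capitals appear, because none of the 5 motifs searched on both strands matched.
Kpna2: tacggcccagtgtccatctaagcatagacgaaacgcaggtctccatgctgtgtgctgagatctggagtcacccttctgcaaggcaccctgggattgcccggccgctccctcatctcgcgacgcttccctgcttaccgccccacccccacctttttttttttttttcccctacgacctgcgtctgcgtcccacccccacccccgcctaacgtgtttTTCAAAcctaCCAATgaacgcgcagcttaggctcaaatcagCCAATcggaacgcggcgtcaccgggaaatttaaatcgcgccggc
Cd63: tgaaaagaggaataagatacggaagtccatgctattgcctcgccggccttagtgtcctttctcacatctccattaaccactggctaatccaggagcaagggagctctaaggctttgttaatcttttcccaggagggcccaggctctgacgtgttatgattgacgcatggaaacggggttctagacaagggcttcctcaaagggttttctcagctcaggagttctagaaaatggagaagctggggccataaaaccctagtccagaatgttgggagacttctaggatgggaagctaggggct
Of 32851 RefSeq promoters of the same length, 37.4% held CCAAT and 17.9% held TTTGAA. The AP-1 site (TGANTCA) was in 7.81%, the cyclic AMP response element (TGACGTCA) in 1.79% and the STAT site (TTCNNNGAA) in 8.30% of them. No match overlapped another in these windows, and a match of letters is not evidence of a bound factor. The RefSeq start of Cd63 lies inside the GENCODE gene, which spans chr10:128900989-128912822.

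Deposited counts summed to between 6472476 and 42435331 per sample, and the members were counted 222 to 20523 times in a sample. CPM below are library-scaled counts (edgeR's CPM) after TMM normalisation, a scaling that matches libraries on the bulk of their genes. Atf3, a transcription factor induced by axon injury, averaged 444 CPM in SNA_Saline and 447 CPM in SNA_NAC against 62.6 CPM in Sham_Saline, 98.8 in Sham_H2O2, 30.9 in DCA and 13.8 in LAM. It was thus higher in each sciatic injury group than in Sham_Saline, and no sham group received NAC. DCA was at 25.0 to 39.6 CPM and LAM at 12.2 to 16.9 CPM, a log2 fold change of 1.14 that did not pass (edgeR adjusted p = 0.172). However, DCA lay below the uninjured Sham_Saline, and Sham_Saline exceeded LAM by 2.17 on the log2 scale (edgeR adjusted p = 4.1e-05). All 8 neuron markers and all 6 satellite glia markers were counted in every sample. This cannot test the tissue label, because every listed marker of skeletal muscle and of blood was counted in every sample too. Of the 3 Sham_Saline libraries, 2 stood apart. The slope of log2 CPM (relative to each gene's mean) on the GC share of a gene, per standard deviation of GC share, was -0.02, 0.42 and 0.15 in Sham_Saline replicates 1, 2 and 3, and lay between -0.23 and 0.24 in the other libraries. The same slope on log2 transcript length was 0.14 in Sham_Saline replicate 1 and -0.08 to 0.07 in all others. Markers of skeletal muscle summed to 140 to 1834 CPM in Sham_Saline and 138 to 521 CPM in the injured groups. Leaving out Sham_Saline replicate 1 raised the calls over all genes after sciatic injury from 340 higher and 90 lower to 1280 higher and 1268 lower, and DESeq2 called 520 higher and 343 lower. Where leaving out Sham_Saline replicate 1 changed which members were called, the members called without it are therefore named. DESeq2 calls of members are given as names or as counts.

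Per unit of transcript length, Rab7 was the most abundant member, with a mean of 148 FPKM (fragments per kilobase of transcript, scaled to sequencing depth) over the 18 samples, and Kpna2 was the lowest, with 15.3 FPKM. Between them the order was Cd63 (129 FPKM), Rab5a (100.3 FPKM), Dync1i1 (62.5 FPKM), Dync1i2 (57.6 FPKM), Kpnb1 (40.5 FPKM), Dync1h1 (25.2 FPKM), Dctn1 (23.9 FPKM) and Pdcd6ip (22.8 FPKM). Neighbours in this order were not always apart: Dync1i1 (47.1 to 71.5 FPKM) and Dync1i2 (45.7 to 64.2 FPKM) overlapped over the samples, as did Dync1h1, Dctn1 and Pdcd6ip. The members also differed in how far they varied. The highest sample was 1.17 times the lowest for Rab7, 1.42 times for Dync1i2, 2.98 times for Dync1h1 and 5.78 times for Dctn1, in CPM. The FPKM of all 10 members equal the count times 1 factor per gene and 1 per sample, so both tables hold the same reads for them. In GRCm38 the importin genes lie at chr11:97159714-97187881 (Kpnb1) and chr11:106988629-106999541 (Kpna2), both on the minus strand. The dynein genes lie at chr12:110601452-110666945 (Dync1h1), chr6:5725639-6028039 (Dync1i1) and chr2:71211706-71263303 (Dync1i2), and Dctn1 at chr6:83165920-83200117, all on the plus strand. Rab5a lies at chr17:53479234-53507680 and Cd63 at the position given above, both on the plus strand, and Rab7 at chr6:87999106-88045270 and Pdcd6ip at chr9:113651744-113708259, both on the minus strand. Values are per gene, so isoforms were not separated.

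**Figure D1:**
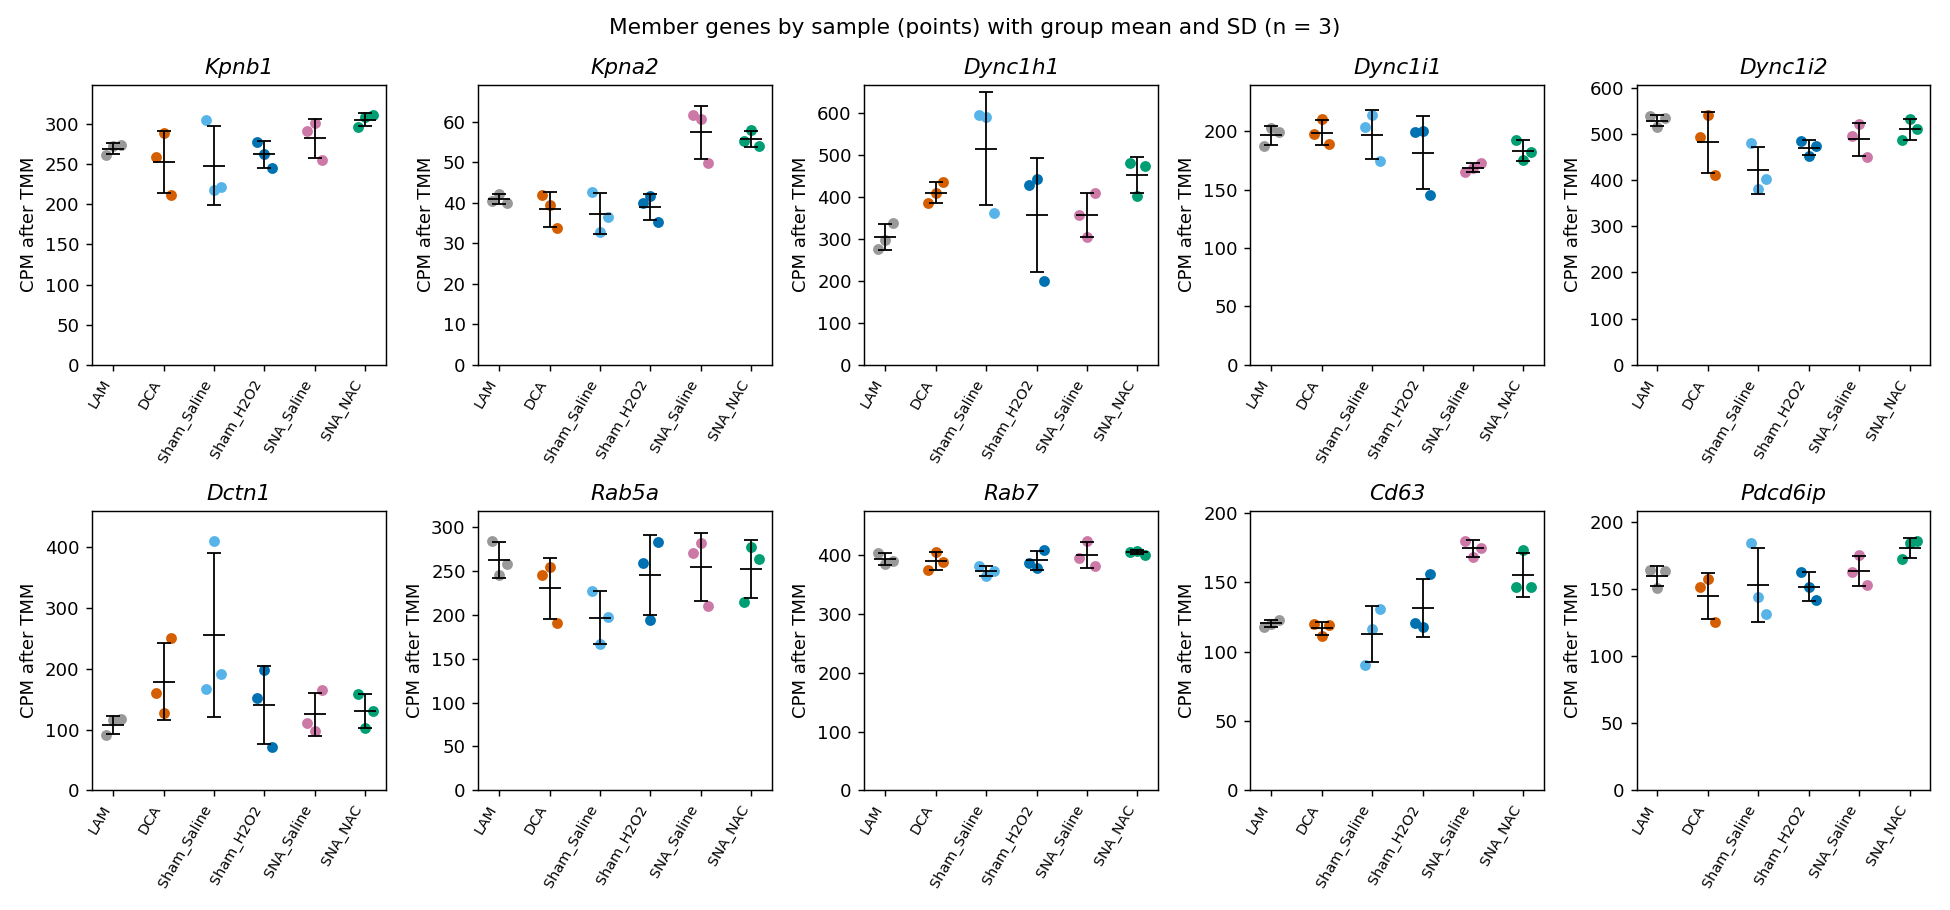
CPM after TMM normalisation (vertical axes, from 0) of each member in every sample, by group (points, 3 per group), with the group mean and SD as a dash and bars. Kpna2 lies at 49.7 CPM or above in the 6 samples with sciatic injury and at 42.7 CPM or below in the other 12, and Dctn1 reaches 411 CPM in 1 Sham_Saline sample.

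Sciatic injury with saline was set against the sham operation with saline. Kpna2, an importin alpha that links cargo to importin beta, and Cd63 rose. The groups did not overlap for either gene, and the other 8 members did not pass. DESeq2 called the same 2 members. Without Sham_Saline replicate 1 edgeR called 4 members, Kpna2, Cd63 and Kpnb1 higher and Dctn1 lower. Over all genes 8.14% were then higher and 8.06% lower. There were 4 members whose groups did not overlap, Kpna2 and Cd63 higher and Dync1i1 and Dctn1 lower. Over all genes 2.16% were called higher, 0.572% were called lower and 19.1% had groups that did not overlap, so 4 of 10 without overlap is to be read against that share. The members' median log2 fold change was 0.14 against -0.03 over all genes, and their median absolute log2 fold change was 0.30 against 0.25. The test was edgeR's quasi-likelihood test with Benjamini-Hochberg adjustment over the 15730 genes and a threshold of 0.05, here and below. SE stands for the standard error of a log2 fold change.

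Among the importins, Kpna2 was at 42.7, 32.6 and 36.4 CPM in the Sham_Saline samples and at 61.6, 60.6 and 49.7 CPM in the SNA_Saline samples. The lowest injured sample lay above the highest sham sample. The means were 37.2 ± 5.06 and 57.3 ± 6.63 CPM (SD, n = 3 each), which gave a log2 fold change of 0.62 (SE 0.12, edgeR adjusted p = 0.00807), or 1.54-fold. Within the 3 sequencing lanes, each of which held 1 sample of each group, the log2 difference was 0.53, 0.89 and 0.45. Summed markers of dividing cells, in which Kpna2 is known to be high, were at 45.9 to 59.1 CPM in Sham_Saline and at 60.5 to 62.3 CPM in SNA_Saline, with 0 of 9 called. In SNA_NAC, where Kpna2 was also high, they were at 45.9 to 57.3 CPM. After sciatic injury with saline the log2 fold changes were positive for 3 of 9 of these markers. Their part in the Kpna2 values was not tested. Whole ganglia cannot tell more RNA per cell from more cells that express the gene. Kpnb1, the importin beta that carries the cargo through the nuclear pore, was at 306, 218 and 222 CPM in Sham_Saline and at 291, 302 and 255 CPM in SNA_Saline. These groups overlapped, and the log2 fold change was 0.19 (SE 0.13, edgeR adjusted p = 0.379). Without Sham_Saline replicate 1 the log2 fold change of Kpnb1 was 0.36 and passed (edgeR adjusted p = 0.0451). Kpna2 lost its call without SNA_Saline replicate 1 (log2 fold change 0.57, edgeR adjusted p = 0.0622) and when the fit held only the 6 samples of this comparison (0.61, edgeR adjusted p = 0.268). Its counts are uncertain. The search for similar genes used the longest annotated transcript of each member. For Kpna2, 5 other annotated genes, none in the count table, match at 95% identity or more over 100 bases or more. The longest match spans 1968 bases at 99.9% identity.

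Cd63 was at 90.6, 117 and 131 CPM in Sham_Saline and at 180, 168 and 175 CPM in SNA_Saline. The 3 injured samples lay close together and above every other library of the uninjured sciatic groups and of the spinal groups. The means were 113 ± 20.4 and 175 ± 5.89 CPM (SD, n = 3 each), which gave a log2 fold change of 0.63 (SE 0.13, edgeR adjusted p = 0.0113), or 1.55-fold. Within lanes the log2 difference was 0.99, 0.53 and 0.42. Cd63 is also expressed by glia and macrophages, whose summed markers in Sham_Saline and SNA_Saline were at 978 to 1165 and 1121 to 1155 CPM for satellite glia, at 7013 to 11147 and 8721 to 9511 CPM for Schwann cells, and at 67.3 to 105 and 85.5 to 94.9 CPM for macrophages. In each of these 3 lists the injured range lay inside the sham range, which was wide, and none of their 6, 7 and 8 markers was called. The log2 fold changes were positive for 4 of 6 satellite glia, 2 of 7 Schwann cell and 4 of 8 macrophage markers. Their part in the Cd63 values was not tested. Pdcd6ip, by contrast, was at 184, 144 and 131 CPM in Sham_Saline and at 163, 176 and 153 CPM in SNA_Saline. The groups overlapped, and the log2 fold change was 0.10 (SE 0.12, edgeR adjusted p = 0.633). Cd63 lost its call without SNA_Saline replicate 1 (0.61, edgeR adjusted p = 0.0654) and with only the 6 samples of the comparison in the fit (0.62, edgeR adjusted p = 0.224). By the search used for Kpna2, 41 other annotated genes, 28 of them counted, match its longest annotated transcript, of 2894 bases. The longest match spans 188 bases at 98.4% identity. Whether the matches lie in the counted sequence was not tested, so the counts of Cd63 are uncertain too.

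None of the 4 dynein and dynactin members passed. Dctn1, the dynactin subunit that binds microtubules and the dynein intermediate chains, was at 166, 411 and 191 CPM in Sham_Saline and at 111, 97.9 and 166 CPM in SNA_Saline. Sham_Saline replicate 2 was far above the other samples, and the highest injured sample was just below the lowest sham sample. The log2 fold change was -1.03 (SE 0.37, edgeR adjusted p = 0.142), and without Sham_Saline replicate 2 it was -0.51 (edgeR adjusted p = 0.60). Without Sham_Saline replicate 1 it was -1.27 and passed (edgeR adjusted p = 0.0413). Dync1h1, the heavy chain that holds the motor domain, was at 596, 590 and 361 CPM in Sham_Saline and at 358, 304 and 409 CPM in SNA_Saline. The groups overlapped, and the log2 fold change was -0.53 (SE 0.24, edgeR adjusted p = 0.206). Of the intermediate chains, which attach the motor to its cargo and to dynactin, Dync1i1 was at 203, 214 and 174 CPM in Sham_Saline and at 165, 169 and 173 CPM in SNA_Saline (log2 fold change -0.22, SE 0.11, edgeR adjusted p = 0.245). Dync1i2 was at 480, 382 and 402 CPM in Sham_Saline and at 496, 521 and 450 CPM in SNA_Saline (log2 fold change 0.21, SE 0.11, edgeR adjusted p = 0.247), and 7 other annotated genes, 3 of them counted, match it over up to 154 bases. Dync1i1, which neurons express strongly, was lower in each injured sample, and Dync1i2 overlapped between the groups. The 8 neuron markers summed to 8675 to 12791 CPM in Sham_Saline and 8310 to 9100 CPM in SNA_Saline, with 2 of 8 log2 fold changes positive and 0 called, and their part in these values was not tested.

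The endosomal GTPases did not pass. Rab5a, which marks early endosomes, was at 227, 166 and 198 CPM in Sham_Saline and at 271, 282 and 210 CPM in SNA_Saline, which gave a log2 fold change of 0.37 (SE 0.16, edgeR adjusted p = 0.207). Rab7, which marks late endosomes, was at 382, 364 and 372 CPM in Sham_Saline and at 395, 424 and 381 CPM in SNA_Saline, which gave a log2 fold change of 0.10 (SE 0.08, edgeR adjusted p = 0.400). Each pair of groups overlapped. Rab7 had the smallest spread of the members. Counts of Kpnb1, Dync1h1, Rab5a and Rab7 may include reads of a counted gene on the opposite strand (Gm11583, Gm17111, Pp2d1 and Gm5577), since whether counting used the strand is not given in the sources used here. Rab7 also shares up to 622 bases with 2 other annotated genes.

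**Figure D2:**
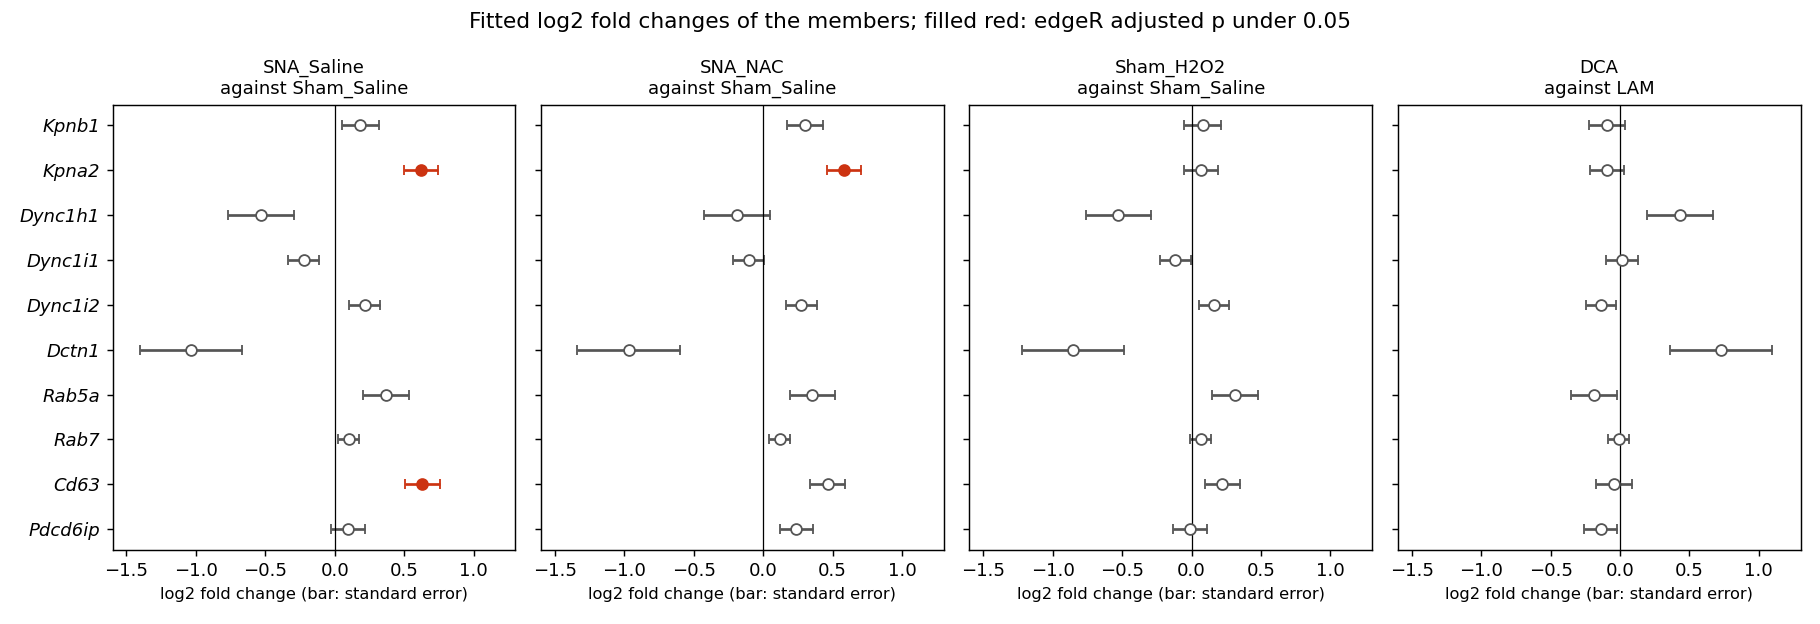
Fitted log2 fold change (horizontal axis, bars show the standard error) of the 10 members in 4 comparisons. Filled red points passed an edgeR adjusted p of 0.05: Kpna2 and Cd63 after sciatic injury with saline, Kpna2 after injury with NAC, and none with peroxide or after dorsal column injury.

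The sign of the members' log2 fold changes split with the GC share of the annotated transcript nearest in length to the counted one. The part of base composition in these values was tested only through offsets. This GC share ran from 40.9% in Dync1i2 to 58.8% in Dctn1. The nearest transcript was not always close in length. It had 4523 bases against 8387 implied by counts and FPKM in Dync1i2, and 4321 against 6593 in Dctn1. The 3 members above 50% GC, Dctn1, Dync1h1 and Dync1i1, had negative log2 fold changes, and the 7 below it had positive ones. Among those 7 the values did not follow GC share: Dync1i2 (40.9%) was at 0.21, Pdcd6ip (47.0%) at 0.10 and Cd63 (48.1%) at 0.63. With offsets for GC share and length in the fit, Dctn1 went from -1.03 to -0.50 (edgeR adjusted p = 0.0806), Dync1h1 from -0.53 to -0.27 (edgeR adjusted p = 0.272), Rab5a from 0.37 to 0.12 and Dync1i2 from 0.21 to -0.0087. Kpna2 was at 0.47 (SE 0.10, edgeR adjusted p = 0.00974) and Cd63 at 0.56 (SE 0.08, edgeR adjusted p = 0.000289). Both calls were thus made with the offsets. The choice of transcript mattered for Cd63: its longest annotated transcript, of 2894 bases and 58.1% GC, gave 1.04 (edgeR adjusted p = 0.00907), whereas the deposited counts and FPKM together imply a counted length of 1044 bases, nearest to a transcript of 1043 bases and 48.1% GC. With the longest transcript Cd63 would lie above 50% GC with a positive log2 fold change. The split by sign thus holds only with the nearest one. With either choice the calls among the members were Kpna2 and Cd63 only.

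**Figure D3:**
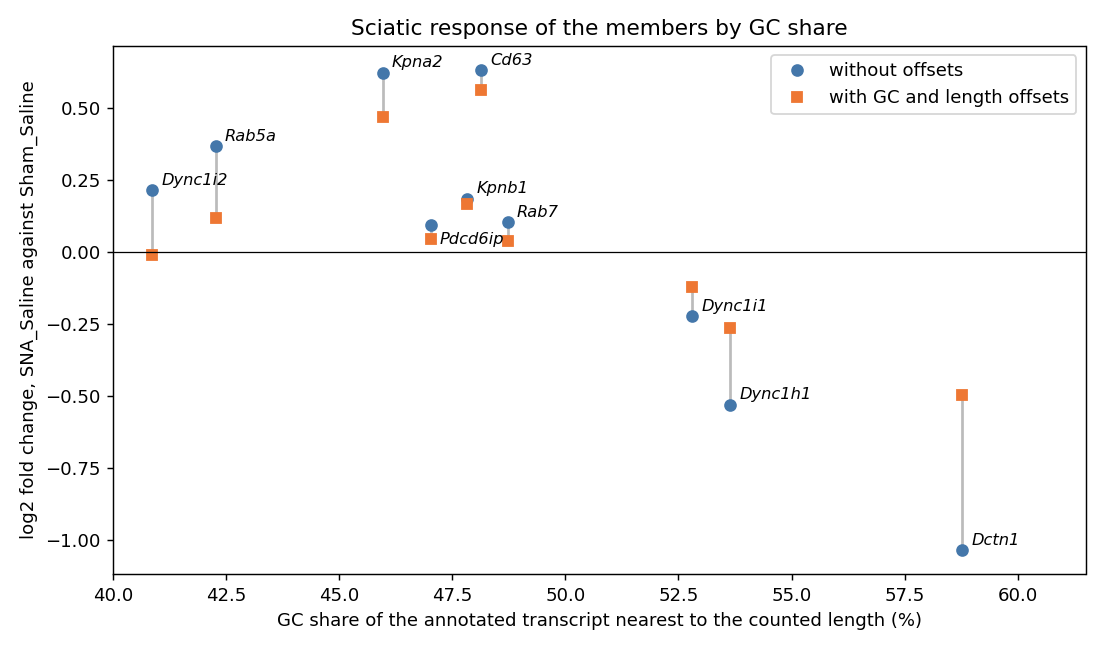
Log2 fold change after sciatic injury with saline (vertical axis) against the GC share of each member's transcript nearest to the counted length (horizontal axis, %), without offsets (circles) and with GC and length offsets (squares). The offsets bring Dctn1 from -1.03 to -0.50 and Dync1i2 to -0.0087, and leave Kpna2 at 0.47 and Cd63 at 0.56.

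Other genes of the same machinery were taken from 5 lists with 128 genes, of which 125 were measured. After sciatic injury with saline 4 of the 125 rose and 0 fell: Kpna2, Cd63, Rcc1 and Ndel1. That is near the share over all genes, of which 2.16% were called higher and 0.572% lower. In the nuclear import list 2 of 26 rose, with a median log2 fold change of 0.18, and 18 of 26 values were positive. Rcc1, the chromatin-bound exchange factor that loads Ran with GTP in the nucleus, was at 10.5 ± 1.46 CPM in Sham_Saline and 15.9 ± 1.23 CPM in SNA_Saline (SD, n = 3 each), which gave a log2 fold change of 0.60 (SE 0.15, edgeR adjusted p = 0.0338). Rcc1 overlaps the counted genes Snhg3 on its own strand and Gm17300 on the opposite one, so its counts are uncertain. In the dynein and dynactin list 1 of 29 rose, with a median of 0.07: Ndel1, a dynein regulator that binds its motor and Lis1. Ndel1 was at 148 to 160 CPM in Sham_Saline and at 204 to 231 CPM in SNA_Saline, which gave a log2 fold change of 0.49 (SE 0.08, edgeR adjusted p = 0.00188). The endosome list had 0 of 31 called and a median of 0.10, the exosome and ESCRT list 1 of 28, Cd63 itself, and a median of 0.08, and the kinesin list 0 of 11 and a median of -0.05. Over all genes the median was -0.03. Ndel1 was called without each of the 6 samples in turn. Rcc1 was not, with edgeR adjusted p between 0.0510 and 0.191 without Sham_Saline replicate 2 or any 1 of the 3 SNA_Saline samples, and its adjusted p was 0.0667 with the lane as a replicate block. Without Sham_Saline replicate 1 the lists had 30 genes higher and 4 lower, among all genes 8.14% higher and 8.06% lower, and without SNA_Saline replicate 1 they had 1. With the offsets of the 2 transcript choices 9 genes were higher, the added ones being Chmp4b, Kif3b, Rab35, Stam and Vps4b, while over all genes the share called higher went from 2.16% to 5.18% and 5.23%.

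**Figure D4:**
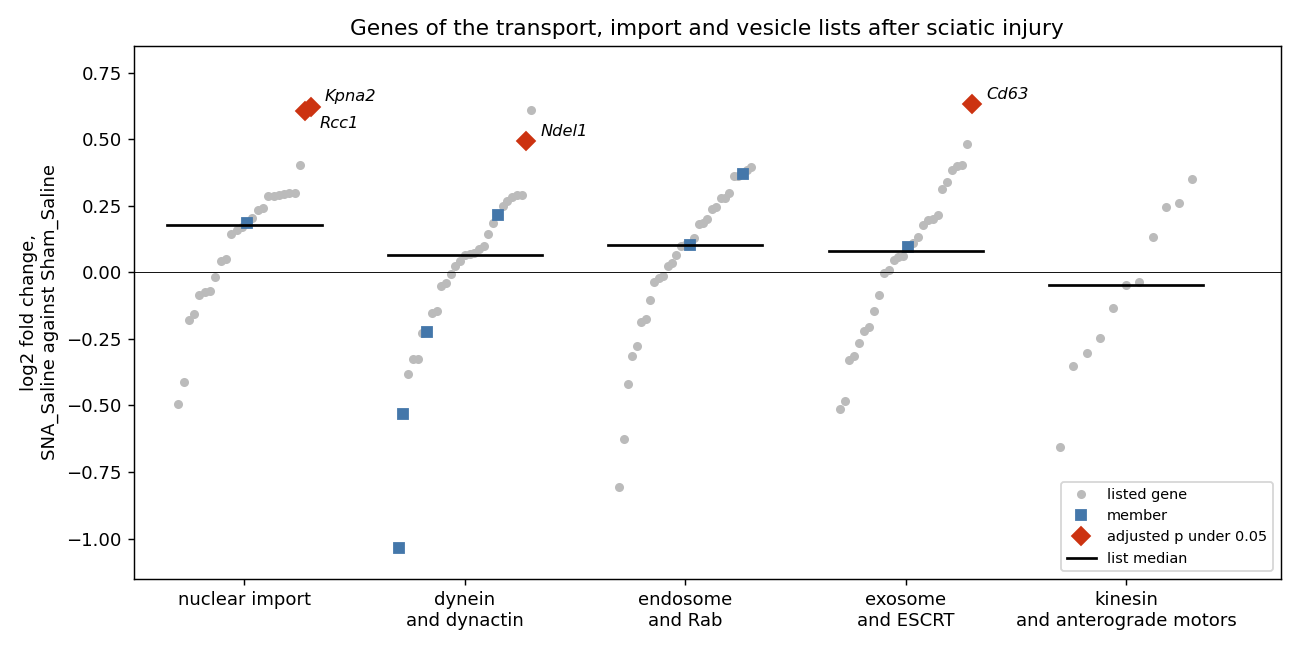
Log2 fold change after sciatic injury with saline (vertical axis) of the 125 measured genes of the 5 lists, ordered by value within each list (grey), with members in blue, genes with an edgeR adjusted p under 0.05 as red diamonds and list medians as lines. The 4 red genes, Kpna2, Rcc1, Ndel1 and Cd63, all lie above 0, and Dctn1 is the lowest point at -1.03.

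The same injury with NAC was compared with the same Sham_Saline samples, so this result is not independent of the first. No sham group received NAC, so injury and NAC cannot be told apart in this comparison. Kpna2 rose again and the other 9 members did not pass. It was at 55.3, 57.9 and 54.0 CPM, all above the 3 sham samples, with a mean of 55.7 ± 2.03 CPM (SD, n = 3), which gave a log2 fold change of 0.58 (SE 0.12, edgeR adjusted p = 0.0115). Over all genes 2.47% were called higher and 0.846% lower. Cd63 was at 146, 174 and 147 CPM, all above the sham samples, with a log2 fold change of 0.46 (SE 0.13, edgeR adjusted p = 0.0579), just short of the threshold. With GC and length offsets from the nearest transcript Cd63 was at 0.47 and passed (edgeR adjusted p = 0.00142), and DESeq2 called it too (adjusted p = 0.0264). There were 5 members whose groups did not overlap, Kpna2, Cd63, Dync1i2 and Rab7 higher and Dctn1 lower, against 21.2% of all genes. Dctn1 was at 160, 102 and 131 CPM (log2 fold change -0.97, SE 0.37, edgeR adjusted p = 0.129) and Dync1h1 at 481, 402 and 475 CPM (-0.19, SE 0.24, edgeR adjusted p = 0.604). Kpna2 lost its call without Sham_Saline replicate 2 (edgeR adjusted p = 0.0723), without SNA_NAC replicate 2 (0.0636 by the same test) and with only the 6 samples in the fit (0.191). Without Sham_Saline replicate 1, 7 members passed: Kpna2, Kpnb1, Cd63, Dync1i2, Pdcd6ip and Rab5a higher and Dctn1 lower. Over all genes 18.4% were then called higher and 18.9% lower.

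Of the 125 listed genes 5 rose and 0 fell after injury with NAC: Kpna2, Rcc1, Ndel1, Vps26a and Stam. Over all genes 2.47% were called higher and 0.846% lower, so this count too is near the background. Ndel1 was at 229 ± 12.7 CPM (SD, n = 3), which gave a log2 fold change of 0.58 (SE 0.08, edgeR adjusted p = 0.000348). Rcc1 was at 15.6 ± 0.665 CPM (SD, n = 3), which gave a log2 fold change of 0.58 (edgeR adjusted p = 0.0349). Vps26a, a subunit of the retromer that recycles cargo from endosomes, went from 70.1 ± 9.59 to 98.0 ± 7.35 CPM (SD, n = 3 each), which gave a log2 fold change of 0.48 (edgeR adjusted p = 0.0321). Stam, a subunit of the first ESCRT complex that sorts ubiquitinated cargo, went from 108 ± 24.0 to 161 ± 12.8 CPM (SD, n = 3 each), which gave a log2 fold change of 0.58 (edgeR adjusted p = 0.0470). Only Kpna2 and Ndel1 passed with the lane as a replicate block, where the adjusted p was 0.0642 for Rcc1, 0.0540 for Vps26a and 0.0520 for Stam. Of the 6 samples left out in turn, Rcc1 and Stam passed only without Sham_Saline replicate 1 (edgeR adjusted p otherwise 0.0622 to 0.107 and 0.0633 to 0.255), and Vps26a only without that sample or SNA_NAC replicate 1 (otherwise 0.107 to 0.182). Leaving out 1 sample left between 1 and 59 of the 125 genes called, the latter without Sham_Saline replicate 1, where 18.4% of all genes were higher and 18.9% lower, and Ndel1 was called each time.

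The direct test of the antioxidant, SNA_NAC against SNA_Saline, called none of the members and 0.0% of all genes at the threshold. At an unadjusted p under 0.05 there were 0 members and 314 of 15730 genes, and DESeq2 called 0 genes. The log2 difference was -0.04 for Kpna2 (SE 0.12) and -0.17 for Cd63 (SE 0.13). It was largest in Dync1h1, at 0.34 (SE 0.24, edgeR adjusted p = 1.00). Dync1i1 alone had groups that did not overlap, at 192, 175 and 183 CPM with NAC against 165, 169 and 173 CPM with saline, against 14.9% of all genes. These errors do not show that the 2 groups were alike.

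Peroxide with the sham operation, Sham_H2O2 against Sham_Saline, called none of the members and 0.0% of all genes. At an unadjusted p under 0.05 there were 2 members, Dctn1 and Dync1h1, and 1440 of all genes, and DESeq2 called 4 genes and 0 members. No member had groups that did not overlap, against 5.43% of all genes. Kpna2 was at 39.8, 41.7 and 35.3 CPM, within the range of the sham samples (log2 fold change 0.07, SE 0.12, edgeR adjusted p = 0.792). Cd63 was at 121, 118 and 156 CPM (0.22, SE 0.13, edgeR adjusted p = 0.450). Dctn1 was at 153, 199 and 71.2 CPM (-0.86, SE 0.37) and Dync1h1 at 429, 442 and 200 CPM (-0.53, SE 0.24), both at an edgeR adjusted p of 0.449. The low value of both was in replicate 3, the shallowest library and the one with the lowest GC slope, -0.23.

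Dorsal column injury against laminectomy called none of the members and 0.0% of all genes. At an unadjusted p under 0.05 there were 0 members and 793 of all genes, and DESeq2 called 2 genes and 0 members. Kpna2 was at 40.4, 42.2 and 40.0 CPM in LAM and at 42, 39.3 and 33.7 CPM in DCA (log2 fold change -0.09, SE 0.12, edgeR adjusted p = 0.730). Cd63 was at 118, 120 and 123 CPM in LAM and at 120, 112 and 119 CPM in DCA (-0.04, SE 0.13, edgeR adjusted p = 0.884). Only Dync1h1 and Dctn1 had groups that did not overlap, both higher in DCA, against 21.7% of all genes. Dync1h1 was at 276, 298 and 338 CPM in LAM and at 386, 409 and 435 CPM in DCA (0.43, SE 0.24, edgeR adjusted p = 0.624). Dctn1 was at 90.7, 117 and 117 CPM in LAM and at 160, 127 and 250 CPM in DCA (0.73, SE 0.37, edgeR adjusted p = 0.624). The value of 250 CPM was in DCA replicate 3, which had a GC slope of 0.24. With GC and length offsets from the nearest transcript Dync1h1 was at 0.31 and Dctn1 at 0.35 (edgeR adjusted p = 0.682 for both).

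The sciatic response was tested against the dorsal column response as a difference of differences. Kpna2 passed, with a difference of 0.72 on the log2 scale (SE 0.17, edgeR adjusted p = 0.0449). Over all genes 1.23% had a higher and 0.388% a lower sciatic response. Cd63 differed by 0.68 (SE 0.18, edgeR adjusted p = 0.0659), and Dctn1 by -1.76 (SE 0.52, edgeR adjusted p = 0.0813). Dync1h1 differed by -0.96 (SE 0.33, edgeR adjusted p = 0.0928). With GC and length offsets from the nearest transcript the call moved from Kpna2 (0.48, edgeR adjusted p = 0.0669) to Cd63 (0.60, edgeR adjusted p = 0.00726) and Dctn1 (-0.85, edgeR adjusted p = 0.0460). Offsets from the longest transcript with the replicate block called Cd63 and Kpna2. Kpna2 passed without DCA replicate 1, Sham_Saline replicate 1 or SNA_Saline replicate 3 and missed, with edgeR adjusted p of 0.0580 to 0.148, without each of the other 9 samples. Without Sham_Saline replicate 1, 6 members passed: Kpna2, Kpnb1, Cd63, Dync1i2 and Rab5a with a higher sciatic response and Dctn1 with a lower one. Over all genes 12.3% were then higher and 16.9% lower. Of the 125 listed genes only Kpna2 and Ndel1 passed. Ndel1 differed by 0.46 (SE 0.11, edgeR adjusted p = 0.0499), and with the replicate block by 0.46 (edgeR adjusted p = 0.0654). It missed without 10 of the 12 samples, all but Sham_Saline replicate 1 and SNA_Saline replicate 3.

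The controls of the sciatic and spinal arms were compared because the difference above rests on both. Sham_Saline against LAM called none of the members and 0.0699% of all genes. An unadjusted p under 0.05 was found for 4 members and 4765 of all genes: Dctn1 (log2 difference 1.24, SE 0.37), Dync1h1 (0.76, SE 0.24), Dync1i2 (-0.33, SE 0.11) and Rab5a (-0.41, SE 0.16), with edgeR adjusted p of 0.104 for the first 3 and 0.121 for Rab5a. There were 5 members whose groups did not overlap, Dync1h1 and Dctn1 higher and Dync1i2, Rab5a and Rab7 lower, against 30.6% of all genes. DESeq2 called 3 members, Dctn1 (adjusted p = 0.0329), Dync1h1 (0.0417) and Dync1i2 (0.0436). Without Sham_Saline replicate 1 edgeR called Dctn1, Dync1i2 and Rab5a, with 19.7% of all genes higher and 12.2% lower. With GC and length offsets from the nearest transcript no member was called. The log2 differences were then 0.55 for Dctn1, 0.41 for Dync1h1, -0.05 for Dync1i2 and -0.13 for Rab5a. Kpna2 and Cd63 overlapped between the controls, at -0.13 and -0.10 with standard errors of 0.12 and 0.13 (edgeR adjusted p = 0.446 and 0.611).

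Correlations across the 18 samples are given as a description without a test, since all points share their libraries and depth. The Pearson correlation of log2 CPM was 0.93 between Kpnb1 and Pdcd6ip, 0.87 between Rab5a and Dync1i2, 0.76 between Dctn1 and Dync1h1, and -0.93 between Dctn1 and Rab5a. Others were near 0, such as Kpnb1 with Dync1h1 (0.07) and Cd63 with Dync1i2 (0.14). Kpna2 and Cd63 correlated at 0.67. Dctn1 was highest, at 411 CPM, in Sham_Saline replicate 2 (GC slope 0.42), where Rab5a was lowest, at 166 CPM. Dctn1 was lowest, at 71.2 CPM, in Sham_H2O2 replicate 3 (GC slope -0.23), where Rab5a was at 283 CPM. The part of the GC slope of the libraries in these correlations was not tested. Among 12991 genes with a mean count of at least 50, the gene most like Rab5a was Sept7 (0.99). The gene most like Kpna2 was Kdm1a (0.96) and the one most like Cd63 was Esd (0.96). The most like genes were also Acbd3 for Kpnb1 (0.98), Uba1 for Dync1h1 (0.97), Amph for Dync1i1 (0.94), Rtn3 for Dync1i2 (0.98), Ppil4 for Rab7 (0.92) and Gpr158 for Pdcd6ip (0.96).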

How the data were processed

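RNA from 18 pools of ganglia was made into stranded mRNA libraries, with single-end reads and 6 libraries in each of 3 lanes, per the labels' protocols. The authors deposited whole-number counts per gene and FPKM values. The submitters' processing notes name TopHat2 2.0.12, Bowtie2 2.2.3, SAMtools 0.1.19, HTSeq 0.6.0, edgeR 3.8.6 and the build mm10, the same assembly as GRCm38, which all coordinates here use. No gene of the deposited count table has a mean count under 10.1, and 1 has an identifier but no symbol.

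The main test used edgeR 4.0.16 (R 4.3.3): TMM, filterByExpr, then glmQLFit and glmQLFTest over all 18 samples together without a block, Benjamini-Hochberg adjustment and a threshold of 0.05. Standard errors were taken as |log2 fold change| over the root of the F statistic. log2 CPM used a prior count of 2. Alternatives were DESeq2 1.42.0, a minimum of 10 counts per sample, an unfiltered table, fits of the compared groups alone, the replicate number as a block, limma 3.58.1 on log2(FPKM + 1) and log2(FPKM + 0.1), offsets for GC share and length (splines with 5 degrees of freedom, GENCODE M21, 15648 genes), and leaving out each sample. Offsets from the transcript nearest to the counted length were added after the data were seen. Similar genes were searched with blastn 2.17.0. The scripts were tested on simulated data.

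The members and lists were chosen with earlier results of these data known. Besides the members, the text names per list and comparison up to 3 passing genes in each direction, the gene most like each member, and Atf3. The gene most like Dctn1 is not reported here. Genes outside this rule (Chmp4b, Kif3b, Rab35 and Vps4b) were named after their values were seen. Replicate numbers equal the lane, so they pair samples by lane, not by animal. Deviations of same-numbered samples from their group means correlated at 0.10, -0.65 and -0.17 across genes in the sciatic comparison. An exact permutation test of 3 against 3 has 0.1 as its smallest two-sided p. P-values measure the spread between pools, and without molecular identifiers a read is not a separate molecule.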

Additional observations from a re-analysis of the deposited data

Results flagged for a closer look

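The log2 response of Kpna2 to sciatic injury exceeded its response to dorsal column injury by 0.72, and that of Ndel1 by 0.46. Both were brought up by the test of the difference between the 2 injuries, in edgeR with adjusted p of 0.0449 and 0.0499. In the sciatic arm Kpna2 averaged 37.2 CPM in Sham_Saline and 57.3 CPM in SNA_Saline, and in the spinal arm 40.8 CPM in LAM and 38.3 CPM in DCA. Ndel1 averaged 153 and 215 CPM in the sciatic arm and 155 and 159 CPM in the spinal arm. Each call lies close to the threshold. The GC slopes of the 2 control groups differ (-0.02 to 0.42 in Sham_Saline, -0.19 to -0.06 in LAM), and their part in the difference was not tested beyond the offsets. With offsets from the longest transcript, from it with the replicate block, and from the nearest transcript, Ndel1 was called each time. Kpna2 was called only with the replicate block. Over all genes 3.45%, 3.04% and 3.49% were then called higher, against 1.23% without offsets.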

How the results depend on the processing

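Over 10 alternatives per comparison and the samples left out in turn, 1180 values of the members were recomputed. Of these 1055 kept their direction and their side of the threshold, 22 lost a call, 33 gained one and 70 changed sign, and 46 of the 70 pairs of member and comparison never changed sign. The unfiltered table repeated the main fit, because the filter removed no gene, so its values agreed by construction. For NAC against saline, peroxide and dorsal column injury the main fit called no member, so no call could be lost there. With only the groups compared in the fit, which also changed the genes kept and the scaling, 0 members and 0 listed genes were called after sciatic injury with saline, with NAC and for the difference between injuries. For sciatic injury with saline, GC and length offsets, with the replicate block or from the nearest transcript, called 9 listed genes each. For injury with NAC, DESeq2 called 2 members and 11 listed genes, the 3 kinds of offsets 2 members each and 11, 10 and 11 listed genes, the replicate block alone 2 listed genes and limma at both pseudocounts 3. For Sham_Saline against LAM, DESeq2 called 3 members and 9 listed genes. For the difference between injuries, DESeq2 called 4 members and 12 listed genes, the 3 kinds of offsets 2 members and 6 listed genes each, the replicate block 1 listed gene, and the 10-count minimum and limma at both pseudocounts 0 of either. The cause of these shifts was not tested. The replicate block alone changed no call of a member. Leaving out 1 sample moved the called members between 0 and 4 (saline), 0 and 7 (NAC), 0 and 3 (controls) and 0 and 6 (difference), and the listed genes between 1 and 34, 1 and 59, 0 and 56, and 0 and 52. Over all genes the calls for the difference split 193 higher and 61 lower in edgeR and 673 and 965 in DESeq2, and with NAC 389 and 133 against 615 and 607.

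Changes of sign concerned log2 fold changes that had not passed. Under GC and length offsets, then with the replicate block, then from the nearest transcript, Dync1i2 was at -0.0060, -0.0042 and -0.0087 after injury with saline, at -0.018, -0.017 and -0.035 with NAC, at -0.012, -0.013 and -0.027 for NAC against saline, at -0.015, -0.016 and -0.020 with peroxide, at 0.036, 0.036 and 0.049 after dorsal column injury and at -0.042, -0.040 and -0.057 for the difference. Dync1i1 was at 0.044, 0.051 and 0.026 with NAC, at 0.020, 0.018 and 0.016 with peroxide, at -0.089, -0.096 and -0.081 after dorsal column injury, and at -0.18, -0.19 and -0.17 between the controls, where the replicate block alone gave -0.0018. Kpna2 was at -0.022, -0.027 and -0.023 with peroxide and at 0.028, 0.018 and 0.025 between the controls, and the first 2 kinds gave 0.0056 and 0.0082 for NAC against saline. Kpnb1 was at -0.014, -0.013 and -0.017 for NAC against saline. Rab7 was at 0.011, 0.011 and 0.014 after dorsal column injury, and at 0.0056 and 0.0057 in limma.

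Leaving out 1 sample also changed signs. The ranges were -0.0041 to 0.25 for Pdcd6ip after injury with saline. For NAC against saline they were -0.13 to 0.016 for Kpna2, -0.10 to 0.32 for Dctn1, -0.14 to 0.089 for Rab5a and -0.018 to 0.054 for Rab7. With peroxide they were -0.0077 to 0.26 for Kpnb1, -0.018 to 0.18 for Kpna2, -0.20 to 0.020 for Dync1i1 and -0.11 to 0.14 for Pdcd6ip. After dorsal column injury they were -0.20 to 0.023 for Kpnb1, -0.033 to 0.051 for Dync1i1 and -0.041 to 0.0045 for Rab7. Between the controls they were -0.059 to 0.085 for Dync1i1, -0.22 to 0.038 for Cd63 and -0.21 to 0.041 for Pdcd6ip.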
